A study of Caenorhabditis elegans with 36 samples.

Results

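Genes of the mitochondrial respiratory chain that are encoded in the nucleus were followed through 3 RNA fractions of *C. elegans* adults. They were chosen by gene name from a table that gives 1 name per locus. A locus was taken when its name began with nuo-, cox-, atp-, asg-, sdha-, sdhb-, sdhc-, sdhd- or ucr-, or was one of 5 further names, among them *lpd-5*, *isp-1*, *cyc-1* and *mev-1*, and when it lay outside the mitochondrial genome. The rule found 28 of the 41875 loci: 7 subunits of complex I, 5 of complex II, 6 of complex III, 6 of complex V (the ATP synthase) and 4 factors that assemble complex IV. No structural subunit of complex IV was among them, since the table lists those genes under older names or joined with a neighbour. All 28 loci passed the filter on low values, at least 1 FPKM in each of the 9 groups, as did 11194 loci of the table. The filter was not applied to the lists of related genes and markers given further on. FPKM corrects fragment counts for transcript length and library size, so that levels may be set side by side between genes.

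The groups combine 3 genotypes with 3 fractions. The genotypes were *ppp-1(wrm10)*, *ppp-1(wrm15)* and the WT Bristol N2, and the fractions were polysome RNA, monosome RNA and total RNA. *ppp-1* encodes the gamma subunit of eIF2B, the factor that recharges the initiation factor eIF2 with GTP. Both alleles (*wrm10* and *wrm15* for short) are point mutations from a chemical mutagenesis screen for long life, so the level of the *ppp-1* RNA does not check the labels. Each was outcrossed to N2, and each genotype is a single strain. Synchronized hermaphrodites were collected whole, embryos included, at day 1 of adulthood without treatment. Lysates were run through a sucrose gradient in the presence of cycloheximide, which holds ribosomes on the message. The monosome fraction held single ribosomes, the polysome fraction the heavier material with disomes left out, and total RNA was taken from the same kind of lysate. The labels count 4 libraries for each group, 36 in all, but the table carries 1 pooled value per group. No spread between libraries could be computed, no comparison has a test, and a difference was counted as past the threshold when it exceeded 1.2-fold (0.26 on the log2 scale). Both mutants were set against the same WT libraries, so their differences from WT are not independent of each other.

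The respiratory chain passes electrons from NADH through complex I, or from succinate through complex II, to ubiquinone, then through complex III and cytochrome c to complex IV, where oxygen is reduced. The protons pumped on the way drive the ATP synthase. Complexes I, III, IV and V mix subunits made on cytosolic ribosomes with others made inside the mitochondrion, whereas complex II is wholly nuclear and is also an enzyme of the tricarboxylic acid cycle. In *C. elegans* the chain is known for its ties to lifespan. Mutations in *isp-1* and *nuo-6* give long-lived animals, whereas those in *mev-1* shorten life and raise sensitivity to oxygen.

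Of the whole table, 3085 loci join the names of several genes, whose values cannot be given to 1 gene. Names that fit the rule but stand in such joined loci are *nuo-1*, *ucr-2.1* and the mitochondrial *atp-6*, and these were not used. Among the 28 loci, 9 also overlap another coding gene of the annotation, which their values may include. The extra length was greatest for *cyc-1* (a locus of 10.01 kb around a gene of 1.75 kb that also spans *rskn-2*, *dod-18* and C54G4.7), for *ucr-2.3* (6.93 kb against 1.60 kb, with *zer-1*), for *cox-15* (8.27 kb against 2.2 kb, with T06D8.2) and for *nuo-5* (12.63 kb against 8.01 kb, with C24B9.3). Markers of body wall muscle, intestine, epidermis, neurons, germline and sperm were all above 0 in every group, and the share of each tissue in the RNA was not measured.

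In total RNA of WT animals the 28 genes spanned 14.9 FPKM (*cox-10*) to 1276 FPKM (*atp-2*), with a median of 135 FPKM. The order of the complexes by median level was the ATP synthase (452 FPKM), complex III (220.5 FPKM), complex I (138 FPKM), complex II (82.2 FPKM) and the assembly factors of complex IV (21.95 FPKM). Within complexes I and II the subunits lay close together, the highest being 3.00 and 2.71 times the lowest, whereas complex III spread 7.30-fold and the ATP synthase 5.78-fold. Together the 28 genes took 0.908% of the summed FPKM of polysome RNA in *wrm10*, 0.919% in *wrm15* and 0.945% in WT. Their share of total RNA was smaller, at 0.452% in *wrm10*, 0.453% in *wrm15* and 0.476% in WT. The plot of levels by complex shows that the 3 genotypes nearly coincide in total RNA and part most in monosome RNA.

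**Figure D1:**
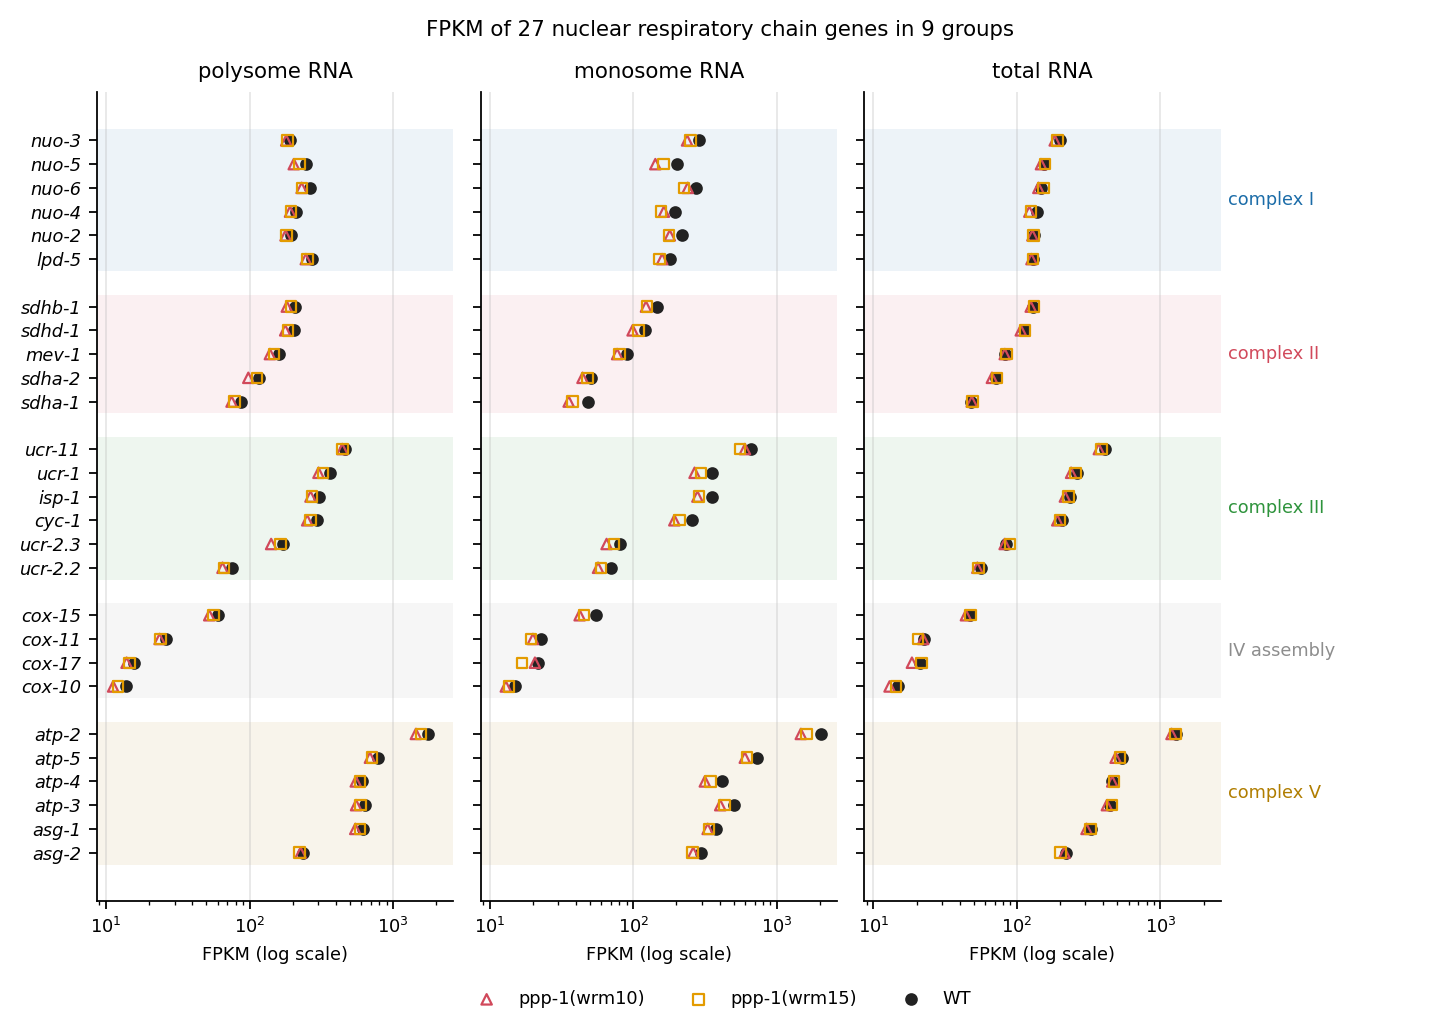
FPKM (log axis) of 27 of the 28 genes in polysome, monosome and total RNA, 1 row per gene, ordered by complex and by level in WT total RNA. Open triangles are *ppp-1(wrm10)*, open squares *ppp-1(wrm15)* and filled circles WT, each 1 pooled value. The WT point is the rightmost in monosome RNA for every gene plotted.

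Complex I, the entry point for NADH, was represented by 3 core subunits that carry the redox groups and by 4 supernumerary ones. *lpd-5*, the homologue of human NDUFS4 (chromosome I), had 246 FPKM in *wrm10*, 252 FPKM in *wrm15* and 272 FPKM in WT in polysome RNA, the highest of complex I. Its monosome RNA held 159 FPKM in *wrm10*, 153 FPKM in *wrm15* and 180.3 FPKM in WT, and its total RNA 126 FPKM in *wrm10*, 129 FPKM in *wrm15* and 130.2 FPKM in WT. The log2 ratio of polysome to total RNA in WT, 1.06, was the highest of the 28 genes.

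*nuo-3*, the homologue of human NDUFA6, was the most abundant complex I member in total RNA, with 183 FPKM in *wrm10*, 192 FPKM in *wrm15* and 200.03 FPKM in WT. It was one of 3 members whose polysome level in WT was below its total level: polysome RNA held 179.9 FPKM in *wrm10*, 184 FPKM in *wrm15* and 192 FPKM in WT. Its monosome RNA, at 237 FPKM in *wrm10*, 251 FPKM in *wrm15* and 289 FPKM in WT, was the highest of the complex in WT and in *wrm15*. *nuo-4*, the homologue of human NDUFA10 (436 codons), had 191 FPKM in *wrm10*, 193 FPKM in *wrm15* and 211 FPKM in WT in polysome RNA. Its monosome RNA held 164 FPKM in *wrm10*, 156 FPKM in *wrm15* and 197 FPKM in WT, and its total RNA 122 FPKM in *wrm10*, 125 FPKM in *wrm15* and 138 FPKM in WT. Here total RNA was lower in both mutants by about as much as polysome RNA.

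*nuo-5*, the homologue of human NDUFS1 and with 729 codons the longest member (chromosome V, 2698972 to 2706984), had the largest drop of any member in a single comparison. In monosome RNA it fell to 143 FPKM in *wrm10* and 163 FPKM in *wrm15*, against 200.3 FPKM in WT, log2 changes of -0.49 in *wrm10* and -0.30 in *wrm15*. Its polysome RNA held 203 FPKM in *wrm10*, 223 FPKM in *wrm15* and 246 FPKM in WT, while its total RNA, at 147 FPKM in *wrm10*, 157 FPKM in *wrm15* and 153 FPKM in WT, showed no such order, the *wrm15* value being the highest. *nuo-2* and *nuo-6*, homologues of human NDUFS3 and NDUFB4, stood at 132 and 147 FPKM in WT total RNA. They shared the pattern of the complex, with 220.0 and 275.5 FPKM in WT monosome RNA.

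Complex II oxidizes succinate through a flavoprotein and an iron-sulfur subunit, held in the membrane by 2 anchors. *mev-1*, the large anchor and homologue of human SDHC (chromosome III, 10334277 to 10335168), had 138 FPKM in *wrm10*, 147 FPKM in *wrm15* and 159.9 FPKM in WT in polysome RNA. Its monosome RNA held 77.3 FPKM in *wrm10*, 80.4 FPKM in *wrm15* and 90.7 FPKM in WT, and its total RNA 82.4 FPKM in *wrm10*, 84.6 FPKM in *wrm15* and 82.2 FPKM in WT. Polysome RNA was thus the highest fraction in every genotype, and monosome RNA was close to total RNA. *sdhb-1*, the iron-sulfur subunit and the most abundant member of the complex, had 182 FPKM in *wrm10*, 195 FPKM in *wrm15* and 207 FPKM in WT in polysome RNA. Its monosome RNA held 123 FPKM in *wrm10*, 125 FPKM in *wrm15* and 146 FPKM in WT, and its total RNA 125 FPKM in *wrm10*, 131 FPKM in *wrm15* and 129.8 FPKM in WT.

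The flavoprotein has 2 genes. *sdha-1* (chromosome X, 8542757 to 8546021) had 74.9 FPKM in *wrm10*, 78.8 FPKM in *wrm15* and 86.7 FPKM in WT in polysome RNA, 35.5 FPKM in *wrm10*, 37.7 FPKM in *wrm15* and 48.5 FPKM in WT in monosome RNA and 48.5 FPKM in *wrm10*, 49.2 FPKM in *wrm15* and 47.9 FPKM in WT in total RNA. *sdha-2* (chromosome I) had 98.0 FPKM in *wrm10*, 113 FPKM in *wrm15* and 117 FPKM in WT in polysome RNA, 44.3 FPKM in *wrm10*, 47.9 FPKM in *wrm15* and 50.9 FPKM in WT in monosome RNA and 67.0 FPKM in *wrm10*, 72.5 FPKM in *wrm15* and 71.7 FPKM in WT in total RNA. In total RNA neither copy reached the level of *sdhb-1*, while their sum was 115.5 FPKM in *wrm10*, 121.8 FPKM in *wrm15* and 119.6 FPKM in WT, next to 125, 131 and 129.8 FPKM for *sdhb-1* in those genotypes. *sdhd-1*, the small anchor, was close to *sdhb-1*, with 177 FPKM in *wrm10*, 184 FPKM in *wrm15* and 203 FPKM in WT in polysome RNA.

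Complex III takes electrons from ubiquinol to cytochrome c. *isp-1*, the Rieske iron-sulfur protein (chromosome IV, 8134016 to 8136055), had 266 FPKM in *wrm10*, 272 FPKM in *wrm15* and 303 FPKM in WT in polysome RNA. Its monosome RNA held 280.0 FPKM in *wrm10*, 287 FPKM in *wrm15* and 352 FPKM in WT, and its total RNA 216 FPKM in *wrm10*, 229 FPKM in *wrm15* and 236 FPKM in WT. Monosome RNA was its highest fraction in every genotype. *cyc-1*, cytochrome c1 (chromosome I), had 252 FPKM in *wrm10*, 265 FPKM in *wrm15* and 294 FPKM in WT in polysome RNA, 193 FPKM in *wrm10*, 209 FPKM in *wrm15* and 257 FPKM in WT in monosome RNA and 191 FPKM in *wrm10*, 199.97 FPKM in *wrm15* and 205 FPKM in WT in total RNA, all of which may include the genes its locus overlaps. *ucr-11*, a small subunit of 56 codons and the shortest member, was the most abundant of the complex. It had 442 FPKM in *wrm10*, 444 FPKM in *wrm15* and 465 FPKM in WT in polysome RNA, 599 FPKM in *wrm10*, 556 FPKM in *wrm15* and 663 FPKM in WT in monosome RNA and 372 FPKM in *wrm10*, 389 FPKM in *wrm15* and 408 FPKM in WT in total RNA, with more in monosomes than in polysomes in each genotype.

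Of the genes for the core proteins of complex III, *ucr-1* and the copies *ucr-2.2* (chromosome X) and *ucr-2.3* (chromosome III) had loci of their own, while *ucr-2.1* is joined with *sams-1*. *ucr-2.2* had 64.8 FPKM in *wrm10*, 66.5 FPKM in *wrm15* and 75.1 FPKM in WT in polysome RNA, 56.9 FPKM in *wrm10*, 59.4 FPKM in *wrm15* and 70.3 FPKM in WT in monosome RNA and 53.1 FPKM in *wrm10*, 53.9 FPKM in *wrm15* and 55.9 FPKM in WT in total RNA. *ucr-2.3* had 141 FPKM in *wrm10*, 164 FPKM in *wrm15* and 172 FPKM in WT in polysome RNA, 65.2 FPKM in *wrm10*, 73.4 FPKM in *wrm15* and 80.8 FPKM in WT in monosome RNA and 82.2 FPKM in *wrm10*, 89.6 FPKM in *wrm15* and 84.5 FPKM in WT in total RNA. The log2 ratio of polysome to total RNA in WT was thus 1.03 for *ucr-2.3* and 0.43 for *ucr-2.2*. *ucr-1* was higher than either, at 302 FPKM in *wrm10*, 326 FPKM in *wrm15* and 361 FPKM in WT in polysome RNA.

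The ATP synthase held the most abundant members. *atp-2*, the catalytic beta subunit (chromosome III, 5228417 to 5230536), was the highest of the 28 genes in every group. It had 1439 FPKM in *wrm10*, 1555 FPKM in *wrm15* and 1755 FPKM in WT in polysome RNA, 1469 FPKM in *wrm10*, 1609 FPKM in *wrm15* and 2023 FPKM in WT in monosome RNA and 1194 FPKM in *wrm10*, 1269 FPKM in *wrm15* and 1276 FPKM in WT in total RNA. Its mutant values lay below WT in each fraction, least in total RNA. *asg-2*, a copy of subunit g on chromosome X, was the lowest of the complex, with 227 FPKM in *wrm10*, 223 FPKM in *wrm15* and 236 FPKM in WT in polysome RNA, 261 FPKM in *wrm10*, 258 FPKM in *wrm15* and 298 FPKM in WT in monosome RNA and 214 FPKM in *wrm10*, 201 FPKM in *wrm15* and 221 FPKM in WT in total RNA. *asg-1*, the other copy of subunit g (chromosome I), had 544 FPKM in *wrm10*, 586 FPKM in *wrm15* and 613 FPKM in WT in polysome RNA, 329.9 FPKM in *wrm10*, 336 FPKM in *wrm15* and 375 FPKM in WT in monosome RNA and 306 FPKM in *wrm10*, 325 FPKM in *wrm15* and 326 FPKM in WT in total RNA. *atp-3* (the oligomycin sensitivity conferring protein of the stalk), *atp-4* (coupling factor 6) and *atp-5* (subunit d) stood between 443 and 538 FPKM in WT total RNA.

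The assembly factors of complex IV were the lowest group. *cox-10*, the heme O synthase, had 11.21 FPKM in *wrm10*, 12.09 FPKM in *wrm15* and 13.8 FPKM in WT in polysome RNA, 13.0 FPKM in *wrm10*, 13.7 FPKM in *wrm15* and 15.1 FPKM in WT in monosome RNA and 13.0 FPKM in *wrm10*, 14.4 FPKM in *wrm15* and 14.9 FPKM in WT in total RNA. *cox-15*, the heme A synthase, had 52.4 FPKM in *wrm10*, 55.9 FPKM in *wrm15* and 60.0 FPKM in WT in polysome RNA, 42.3 FPKM in *wrm10*, 45.6 FPKM in *wrm15* and 54.7 FPKM in WT in monosome RNA and 44.2 FPKM in *wrm10*, 47.5 FPKM in *wrm15* and 47.4 FPKM in WT in total RNA. *cox-17*, a copper chaperone of 63 codons, had 13.9 FPKM in *wrm10*, 14.5 FPKM in *wrm15* and 15.7 FPKM in WT in polysome RNA, 20.7 FPKM in *wrm10*, 16.8 FPKM in *wrm15* and 21.7 FPKM in WT in monosome RNA and 18.6 FPKM in *wrm10*, 21.6 FPKM in *wrm15* and 21.2 FPKM in WT in total RNA. It was the member with the lowest log2 ratio of polysome to total RNA in WT, -0.43. *cox-11*, which delivers copper, stood between 19.4 and 26.3 FPKM in all groups.

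In WT animals most of these genes were at a higher level in polysome RNA than in total RNA. The log2 ratio of polysome to total RNA had a median of 0.53 over the 28 genes, and 22 were past 1.2-fold higher and 1 (*cox-17*) past 1.2-fold lower. Over all 11194 loci the median was 0.14, with 43.8% past 1.2-fold higher and 34.8% past 1.2-fold lower. Abundant loci in general had higher ratios: the 798 loci with at least 100 FPKM in all 9 groups, a set added after seeing the data, had a median of 0.49. These ratios compare FPKM that were normalized within each fraction, so a level in one fraction is relative to the other RNA there. The fractions differ in what else they hold, the FPKM summed over all loci being 917491 in polysome RNA, 892331 in monosome RNA and 1267142 in total RNA of WT.

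Monosome RNA gave a different split of the same genes. The log2 ratio of monosome to total RNA in WT had a median of 0.33, with 15 of 28 past 1.2-fold higher and 1 (*sdha-2*) past 1.2-fold lower, against a median of -0.03 with 29.3% higher and 34.7% lower over all loci. The ratio of polysome to monosome RNA had a median of 0.12, with 11 genes past 1.2-fold higher and 4 (*nuo-3*, *ucr-11*, *cox-17* and *asg-2*) past 1.2-fold lower, where 38.6% of all loci were higher and 34.6% lower. Those 4 genes have short coding regions of 56 to 131 codons, as do *atp-4* and *asg-1*, which lay on the other side at 0.55 and 0.71. Over the 28 genes the log2 ratio of polysome to monosome RNA had a Pearson r of 0.33 and a Spearman rho of 0.25 with the log2 number of codons, given as a description across genes that share their libraries.

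Complexes I and II parted in the monosome fraction. All 7 complex I genes were past 1.2-fold higher in monosome than in total RNA of WT, with log2 ratios of 0.39 to 0.90 and a median of 0.53. Of the 5 complex II genes none was, their ratios running from -0.50 to 0.17 with a median of 0.10. The 2 complexes thus did not overlap in WT. Neither side was particular to 1 complex: complex III had 5 of 6 genes past 1.2-fold higher (median 0.39) and complex V 3 of 6 (median 0.32). The assembly factors of complex IV had 0 of 4 (median 0.03). Of all loci 29.3% were past 1.2-fold higher in this ratio, as were 295 of the 798 with at least 100 FPKM. Both sets held short and long subunits, 131 to 729 codons in complex I and 145 to 646 codons in complex II. Polysome to total ratios overlapped, with medians of 0.68 in complex I and 0.86 in complex II. The plot of both ratios in WT shows complex II near the vertical axis, except *sdha-2* at -0.50 to its left, and complex I to the right of the axis.

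**Figure D2:**
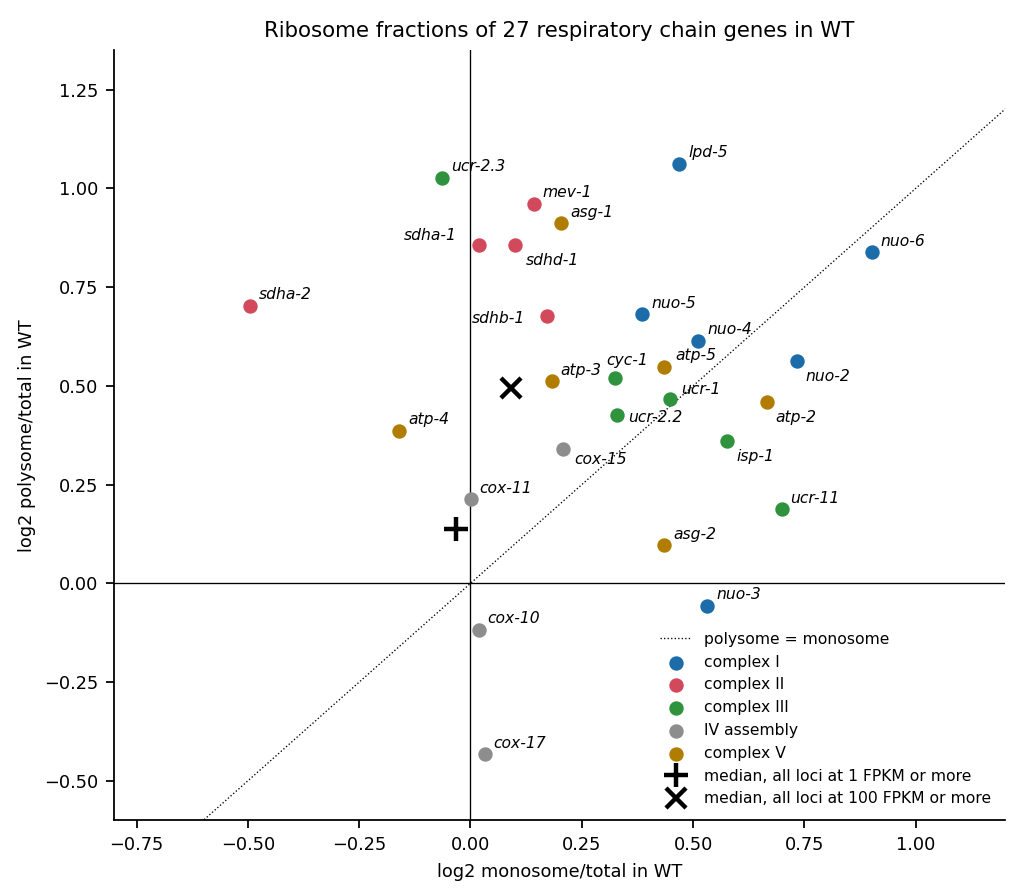
Log2 ratio of monosome to total RNA (horizontal) and of polysome to total RNA (vertical) in WT for 27 of the 28 genes, coloured by complex, each point 1 gene. Points above the dotted line were higher in polysome than in monosome RNA. The 5 complex II genes lie at 0.17 or less on the horizontal axis and the complex I genes at 0.39 or more. The plus and the cross mark the medians of all loci with at least 1 and at least 100 FPKM.

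The same split was seen in the mutant groups, with 1 gene that crossed over. In *wrm10* the monosome to total ratios of complex I ran from -0.05 (*nuo-5*) to 0.76, and those of complex II from -0.60 to -0.03 (*sdhb-1*). In *wrm15* they ran from 0.05 to 0.56 in complex I and from -0.60 to -0.07 in complex II. All 5 complex II genes were past 1.2-fold higher in polysome than in monosome RNA in each genotype (34.7% of all loci in *wrm10*, 36.4% in *wrm15* and 38.6% in WT), with medians of 0.84 in *wrm10*, 0.88 in *wrm15* and 0.82 in WT. Of the 798 loci with at least 100 FPKM, 478 in *wrm10*, 481 in *wrm15* and 438 in WT were past it. Complex I had medians of 0.07 in *wrm10*, 0.05 in *wrm15* and -0.06 in WT. Complex III (0.18 in *wrm10*, 0.15 in *wrm15*, 0.06 in WT) and complex V (0.33 in *wrm10*, 0.33 in *wrm15*, 0.22 in WT) lay between them.

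Other genes of the same pathways, in lists of names chosen with earlier results of these data known, gave values on both sides. Of 23 further complex I names 19 had a locus of their own. Of these 19 genes, 18 were past 1.2-fold higher in monosome than in total RNA of WT (29.3% of all loci), with a median of 0.69. Their median ratio of polysome to monosome RNA was -0.11. Of the 16 genes of the tricarboxylic acid cycle outside complex II, 3 were past 1.2-fold higher in monosome RNA, with a median of 0.09. Their polysome to monosome ratio had a median of 0.61, and 14 of the 16 were past 1.2-fold higher (38.6% of all loci). Of the 798 loci with at least 100 FPKM in all 9 groups, 438 were. The complex II values (medians of 0.10 and 0.82) stood nearer to those of the cycle than to those of complex I. Of 9 further ATP synthase names 8 had their own locus, with a median of 0.49 for monosome against total RNA and -0.13 for polysome against monosome RNA.

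Structural subunits of complex IV were found by coordinates under their older names, a search added after seeing the data. *cox-5A* (listed as *cco-2*) stood at 496 FPKM in *wrm10*, 520.0 FPKM in *wrm15* and 535 FPKM in WT in total RNA, and *cox-5B* (listed as *cco-1*) at 335 FPKM in *wrm10*, 332 FPKM in *wrm15* and 339 FPKM in WT. *cox-4* (W09C5.8), *cox-6A* (*tag-174*), *cox-6C* (F29C4.2) and *cox-7C* (F26E4.6) had 267, 338, 347 and 615 FPKM in WT total RNA, all far above the 4 assembly factors at 14.9 to 47.4 FPKM. *atp-1*, the catalytic alpha subunit (listed as H28O16.1), had 1169 FPKM in *wrm10*, 1296 FPKM in *wrm15* and 1405 FPKM in WT in polysome RNA and 859 FPKM in *wrm10*, 921 FPKM in *wrm15* and 854 FPKM in WT in total RNA. Of the 6 ATP synthase members only *atp-2* was higher. In WT the polysome to monosome ratio of the complex IV subunits ran from -0.40 (*cox-5A*) to 0.77 (*cox-4*).

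For 3 subunits an X-linked and an autosomal copy could be read, and in each of these pairs the X-linked copy was less shifted to polysomes. The complex III core protein has a further X-linked copy, *ucr-2.1*, whose joined locus could not be read. The log2 ratio of polysome to monosome RNA in WT was -0.34 for *asg-2* and 0.71 for *asg-1*, 0.10 for *ucr-2.2* and 1.09 for *ucr-2.3*, and 0.84 for *sdha-1* and 1.198 for *sdha-2*. The X-linked minus autosomal difference for subunit g was -0.93 in *wrm10*, -1.02 in *wrm15* and -1.05 in WT. For the complex III core protein it was -0.93 in *wrm10*, -0.999 in *wrm15* and -0.99 in WT. For the flavoprotein it was smaller and varied with genotype, at -0.07 in *wrm10*, -0.17 in *wrm15* and -0.36 in WT.

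The balance between the copies therefore depended on the fraction. *asg-2* supplied 27.8% of the summed subunit g FPKM in WT polysome RNA, 44.3% in monosome RNA and 40.4% in total RNA. *ucr-2.2* supplied 30.4% of its pair in WT polysome RNA, 46.5% in monosome RNA and 39.8% in total RNA. For *sdha-1* these shares were 42.6%, 48.8% and 40.0%. Among all loci with at least 1 FPKM the X-linked ones had the higher median ratio of polysome to monosome RNA, 0.17 against 0.02 for autosomal loci, the opposite order to the 3 pairs. The loci of *asg-1* and *ucr-2.3* overlap another gene each, and that of *ucr-2.2* overlaps *col-41* and *pkhm-2*. The part of those reads in the ratios was not tested.

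**Figure D3:**
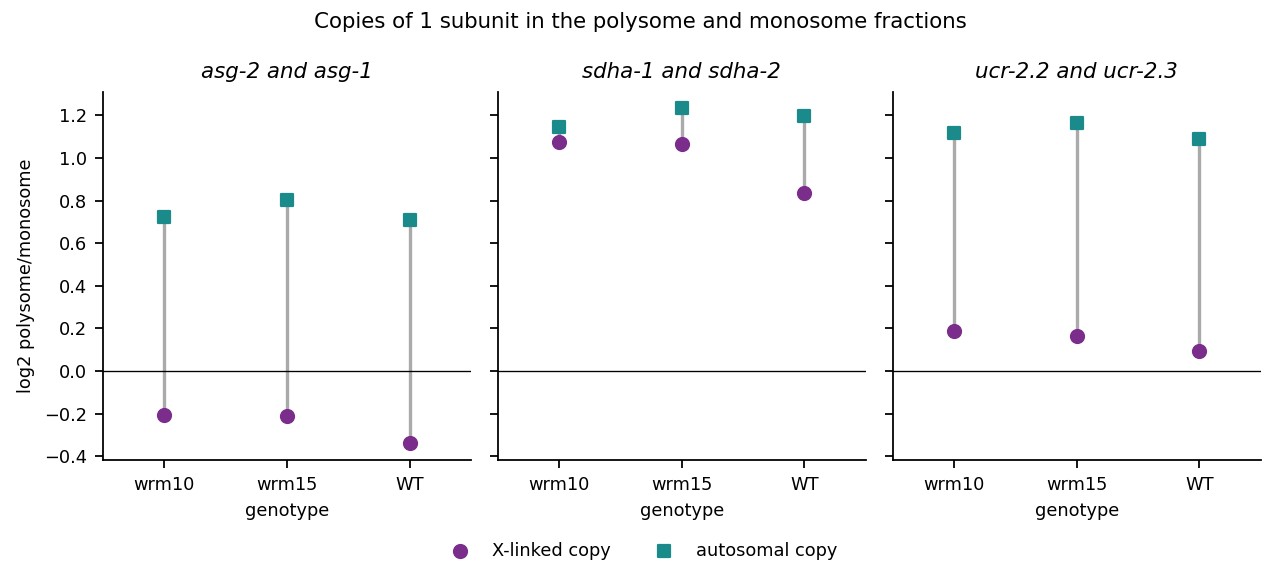
Log2 ratio of polysome to monosome RNA for the 3 pairs of copies in *ppp-1(wrm10)*, *ppp-1(wrm15)* and WT, with 1 pooled value per point. The X-linked copy (circles) lies below the autosomal copy (squares) in all 3 genotypes, by about 1 for subunit g and for the core protein and by 0.07 to 0.36 for the flavoprotein.

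The mutants differed little from WT in total RNA. No gene of the 28 was past 1.2-fold in either mutant, where 25.2% of all loci were in *wrm10* and 28.6% in *wrm15*. Among the 798 loci with at least 100 FPKM in all 9 groups the shares were smaller, 7.02% in *wrm10* and 9.15% in *wrm15*. The median log2 change was -0.08 in *wrm10* (range -0.20 to 0.02) and -0.01 in *wrm15* (range -0.15 to 0.08). In *wrm10* 25 genes were lower than WT at any size of difference, a count added after seeing the data, as were 63.8% of all loci. In *wrm15* 16 were lower, as were 57.6% of all loci, and the other 12 included the 5 genes of complex II, at 0.01 to 0.04.

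In polysome RNA all 28 genes were lower in both mutants. The median log2 change was -0.19 in *wrm10* (range -0.29 to -0.06) and -0.12 in *wrm15* (range -0.19 to -0.04). Lower values at any size were found in 63.4% of all loci in *wrm10* and 54.4% in *wrm15*. Past 1.2-fold lower were 4 genes in *wrm10*, *atp-2*, *cox-10*, *nuo-5* and *ucr-2.3* (12% of all loci), and none in *wrm15* (13.3% of all loci). Centred on the median of all loci, 0 passed in *wrm10*, where 24.1% of all loci did in either direction. The complexes lay close together, with medians of -0.14 to -0.22 in *wrm10* and -0.09 to -0.15 in *wrm15*. The smallest changes in *wrm10* were those of *asg-2*, *ucr-11* and *nuo-3*, at -0.06, -0.07 and -0.10.

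Among abundant loci such a shift was common. Of the 798 loci with at least 100 FPKM in all groups, 88.3% were lower in polysome RNA of *wrm10* and 78.1% in *wrm15*, with medians of -0.16 and -0.10. Past 1.2-fold lower were 18.5% of them in *wrm10* and 11% in *wrm15*, and of the 17 respiratory chain genes above that level 2 and 0 were. Their gap to loci of like level varied with the level. In the bands of WT total RNA from 300 to 1000 FPKM the 5 genes had polysome medians of -0.17 in *wrm10* and -0.07 in *wrm15*, against -0.16 and -0.09 for all loci there. At 30 to 100 FPKM the 7 genes had -0.21 in *wrm10* and -0.12 in *wrm15*, against -0.09 and -0.01 for all loci, and at 10 to 30 FPKM the 3 genes had -0.18 and -0.14, against -0.06 and -0.01. The part of abundance, or of the normalization within each fraction, in their shift was not tested.

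Monosome RNA showed the largest differences. All 28 genes were lower in both mutants, with a median log2 change of -0.28 in *wrm10* (range -0.49 to -0.07) and -0.25 in *wrm15* (range -0.37 to -0.09). Past 1.2-fold lower were 17 genes in *wrm10* and 12 in *wrm15*, against 16% and 19.8% of all loci, and at any size 60.2% and 55.4% of all loci were lower. Centred on the median of all loci, 9 genes in *wrm10* and 6 in *wrm15* passed 1.2-fold. With that centring 29.9% of all loci in *wrm10* and 36.0% in *wrm15* passed it in either direction. The largest drops in *wrm10* were those of *nuo-5* (-0.49), *atp-2* (-0.46) and *sdha-1* (-0.45). In *wrm15* they were those of *cox-17* (-0.37), *sdha-1* (-0.36) and *nuo-4* (-0.34). Complex I had 5 of 7 genes past 1.2-fold in each mutant, whereas complex V had 4 of 6 in *wrm10* and 1 of 6, *atp-2*, in *wrm15*.

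**Figure D4:**
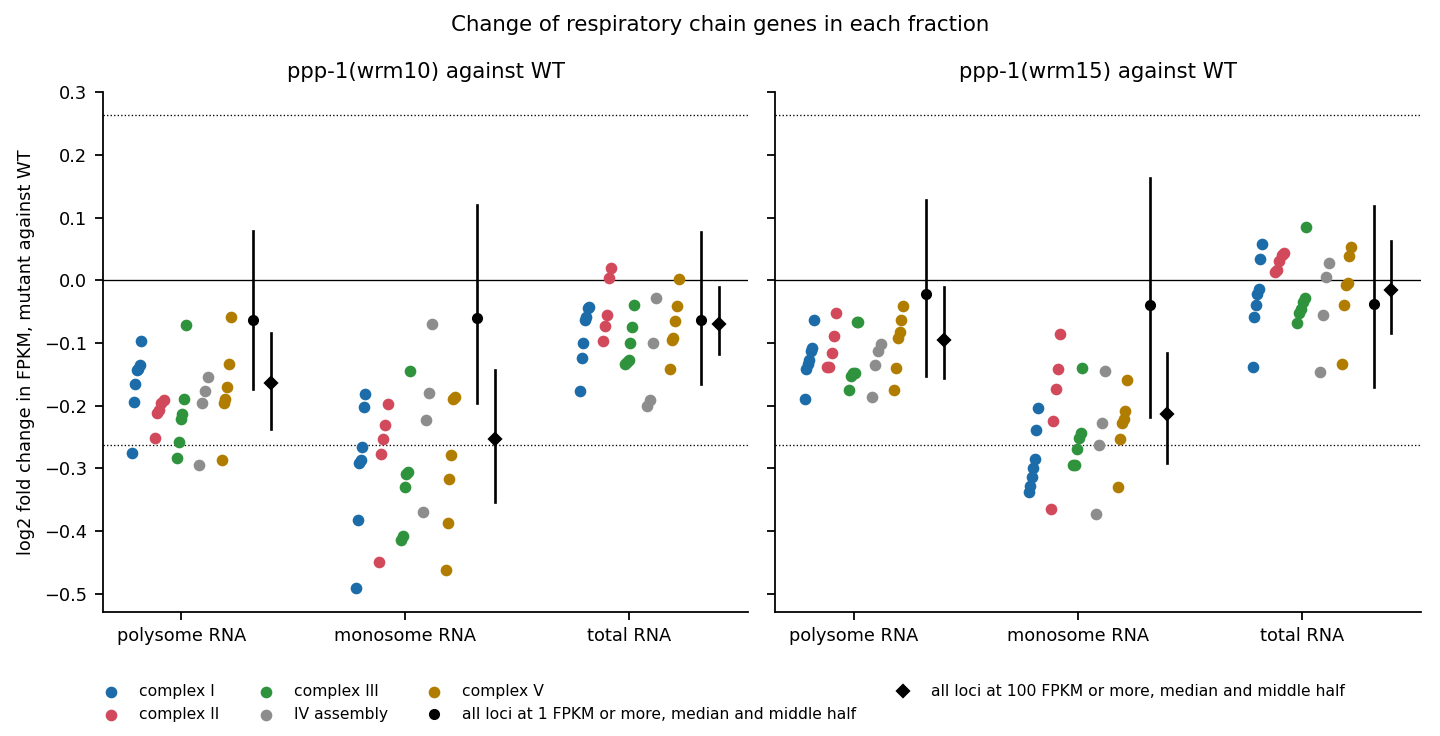
Log2 fold change in FPKM of each of the 28 genes in both *ppp-1* mutants against WT, by fraction and coloured by complex, each point 1 gene. Black symbols are the median of all loci with at least 1 FPKM (circles) and at least 100 FPKM (diamonds), with bars between the quartiles, and dotted lines mark 1.2-fold. All points lie below 0 in polysome and monosome RNA, and the monosome points centre on -0.28 and -0.25.

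Here too the abundant loci moved the same way. Of the loci with at least 100 FPKM, 90.0% were lower in monosome RNA of *wrm10* and 86.8% in *wrm15*, with medians of -0.25 and -0.21. Past 1.2-fold lower were 47.1% of them in *wrm10* and 33.5% in *wrm15*, and of the 17 respiratory chain genes above that level 11 and 8 were. Between 100 and 300 FPKM in WT total RNA the 12 genes had medians of -0.28 in both mutants, against -0.18 in *wrm10* and -0.15 in *wrm15* for all 779 loci of that band. At 300 to 1000 FPKM the 5 genes had -0.28 in *wrm10* and -0.23 in *wrm15*, against -0.25 and -0.22 for 215 loci. The gap was widest at 30 to 100 FPKM, where the 7 genes had -0.31 in *wrm10* and -0.24 in *wrm15* and all 3118 loci had -0.09 and -0.02.

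**Figure D5:**
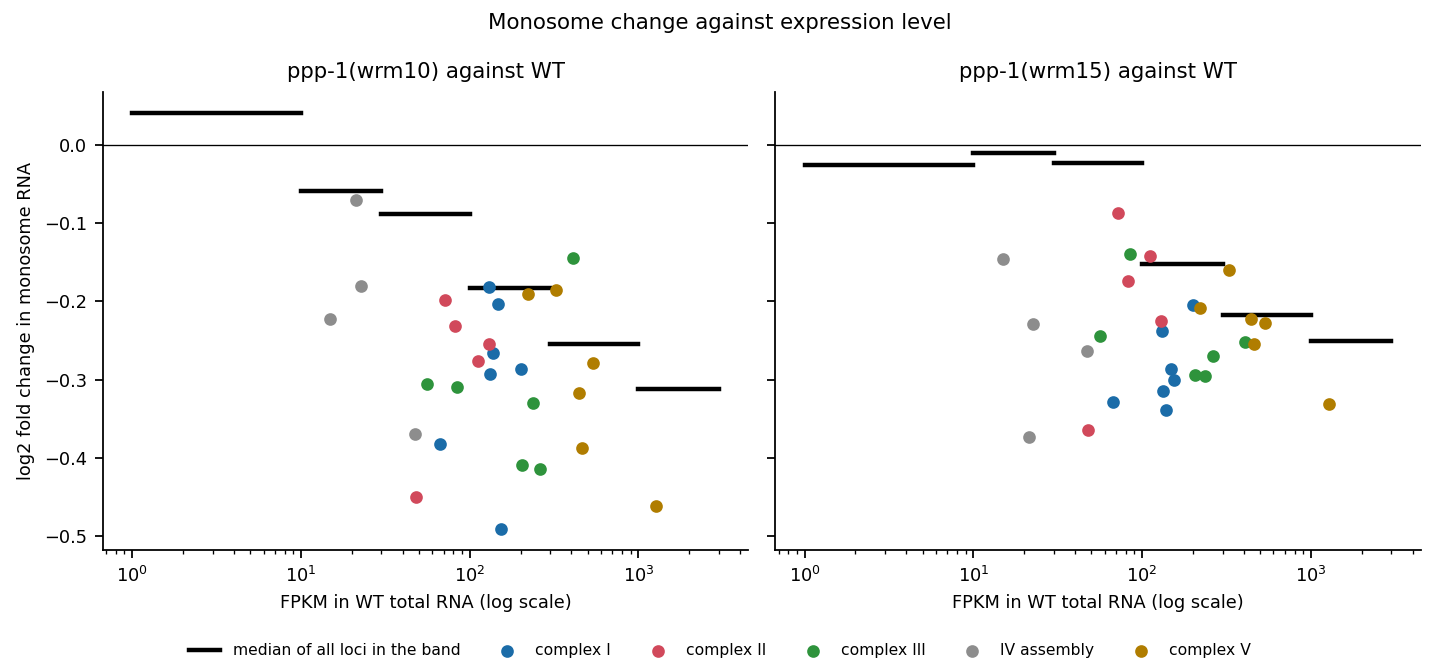
Log2 fold change in monosome RNA of both *ppp-1* mutants against WT, plotted against FPKM in WT total RNA (log axis) for the 28 genes, coloured by complex. Black bars are the medians of all loci in bands of that level, from 0.04 at 1 to 10 FPKM to -0.31 above 1000 FPKM in *wrm10*, the topmost band having no upper limit. In the band of 30 to 100 FPKM all 7 genes lie below the bar in both mutants.

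Markers of 2 large somatic tissues moved with the monosome values. All 4 body wall muscle markers (*unc-54*, *myo-3*, *unc-15*, *unc-27*) were lower in monosome RNA of both mutants, with medians of -0.34 in *wrm10* and -0.42 in *wrm15*. Their summed level was 1413 FPKM in *wrm10*, 1335 FPKM in *wrm15* and 1814 FPKM in WT monosome RNA, and 1328, 1233 and 1308 FPKM in total RNA of those genotypes. The 4 intestinal markers (*vit-2*, *vit-6*, *elt-2*, *ges-1*) were also lower in monosome RNA, with medians of -0.36 in *wrm10* and -0.24 in *wrm15*. Their sum was 5625 FPKM in *wrm10*, 6461 FPKM in *wrm15* and 7677 FPKM in WT monosome RNA, and 4484, 4987 and 4500 FPKM in total RNA of those genotypes. The 6 oocyte and germline markers (*oma-1*, *oma-2*, *puf-5*, *glp-1*, *pgl-1*, *rme-2*) had medians of -0.07 in *wrm10* and 0.38 in *wrm15*, with sums of 591, 775 and 644 FPKM in *wrm10*, *wrm15* and WT.

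Most sperm and epidermal markers lay on the other side. The 6 of 7 sperm markers with their own locus had medians of 0.51 in *wrm10* and 0.44 in *wrm15*, and 4 of them were past 1.2-fold higher in each mutant. Their sum was 344 FPKM in *wrm10*, 356 FPKM in *wrm15* and 369.9 FPKM in WT, the most abundant, *msp-142*, being lower in both mutants. The 3 epidermal markers had medians of 0.43 in *wrm10* and 0.38 in *wrm15*, with 2 past 1.2-fold higher. Those 2 were near the floor. In monosome RNA *dpy-7* had 0.95 FPKM in *wrm10*, 0.91 FPKM in *wrm15* and 0.70 FPKM in WT, below the filter of 1 FPKM. *rol-6* had 5.51, 4.61 and 3.02 FPKM in those genotypes. The epidermal sum of 402, 459.6 and 604 FPKM in *wrm10*, *wrm15* and WT was nearly all *col-19*, which was lower. The 3 neuronal markers had medians of -0.17 in *wrm10* and -0.18 in *wrm15*, with sums of 64.4 FPKM in *wrm10*, 73.4 FPKM in *wrm15* and 71.9 FPKM in WT. No marker was at 0 in any group. The part of tissue make-up in the respiratory chain values was not tested, and in whole animals fewer cells of a type cannot be told apart from less RNA per cell.

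Translational efficiency, the polysome level relative to total RNA, was slightly lower in the mutants for most of the genes. The log2 change had a median of -0.12 in *wrm10* (range -0.25 to 0.06) and -0.11 in *wrm15* (range -0.25 to 0.05), and 24 of 28 genes were lower in each. None was past 1.2-fold in either direction, where 20.1% of all loci were in *wrm10* and 21.7% in *wrm15*. Among the loci with at least 100 FPKM the shares were smaller, 11.5% in *wrm10* and 9.77% in *wrm15*. At any size 54.8% of all loci were lower in *wrm10* and 50.7% in *wrm15*, and of the loci with at least 100 FPKM 81.3% and 81.1% were. The lowest changes averaged over both mutants were those of *sdha-1* (-0.23 in *wrm10*, -0.18 in *wrm15*), *ucr-2.3* (-0.25 and -0.15 in those mutants) and *nuo-5* (-0.22 and -0.18). The highest were those of *ucr-11* (0.06 in *wrm10*, 0.00 in *wrm15*), *nuo-4* (0.03 and 0.01) and *asg-2* (-0.02 and 0.05).

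Complex II was the complex whose genes were all lower, with medians of -0.15 in *wrm10* and -0.16 in *wrm15*, while each of the other groups had at least 1 gene at or above 0 in 1 of the mutants. For *mev-1* the change was -0.21 in *wrm10* and -0.16 in *wrm15*. Its total RNA was level between genotypes, so the difference lay in the polysome value. For *isp-1* it was -0.06 in *wrm10* and -0.11 in *wrm15*, for *cyc-1* -0.12 and -0.11, and for *lpd-5* -0.10 and -0.09. *ucr-11* and *nuo-3*, with values at or near 0, are among the short genes that were higher in monosomes than in polysomes.

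The monosome level relative to total RNA fell more than translational efficiency did. Its median log2 change was -0.20 in *wrm10*, with 27 of 28 genes lower and 9 past 1.2-fold lower (12.8% of all loci). In *wrm15* the median was -0.23, with all 28 lower and 10 past 1.2-fold lower (14% of all loci). Because monosome RNA dropped more than polysome RNA, the polysome to monosome ratio was higher in the mutants, with a median over the 28 genes of 0.23 in *wrm10*, 0.30 in *wrm15* and 0.12 in WT. Loci with at least 100 FPKM had medians of 0.39 in *wrm10*, 0.43 in *wrm15* and 0.34 in WT.

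Between the mutants the *wrm15* values mostly lay nearer to WT. In polysome RNA 27 of 28 genes were higher in *wrm15* than in *wrm10*, with a median of 0.07 and none past 1.2-fold (14.1% of all loci past it and 60.0% higher at any size). In total RNA 26 were higher, with a median of 0.08 and none past 1.2-fold (12.6% of all loci past it and 55.7% higher). In monosome RNA 20 were higher, with a median of 0.06, and 1 gene, *cox-17*, was past 1.2-fold lower at -0.30 (19.5% of all loci past it and 53.2% higher). *cox-17* stood at 20.7 FPKM in *wrm10*, 16.8 FPKM in *wrm15* and 21.7 FPKM in WT in monosome RNA. The depth is not given by the table, so the counting error of such low values is unknown.

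The lists of related genes gave like changes. The 19 further complex I genes had medians of -0.11 in *wrm10* and -0.10 in *wrm15* for polysome RNA and -0.25 and -0.24 for monosome RNA, with 18 of 19 lower in monosome RNA of each mutant. The exceptions were C18E9.4 in *wrm10* (254 FPKM, against 251 FPKM in WT) and F31D4.9 in *wrm15* (253 FPKM, against 235 FPKM in WT). The 8 further ATP synthase genes had -0.15 in *wrm10* and -0.10 in *wrm15* for polysome RNA and -0.26 and -0.21 for monosome RNA, all 8 being lower in monosomes. *hpo-18*, the homologue of the epsilon subunit, was higher in polysome RNA, at 507 FPKM in *wrm10*, 511 FPKM in *wrm15* and 485 FPKM in WT. The 16 genes of the tricarboxylic acid cycle had -0.22 in *wrm10* and -0.11 in *wrm15* for polysome RNA and -0.26 and -0.22 for monosome RNA, all 16 being lower in monosomes.

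The 10 genes found by their present names, 6 of them structural subunits of complex IV, were lower in monosome RNA of both mutants, with medians of -0.20 in each. In polysome RNA 10 were lower in *wrm10* and 9 in *wrm15*, with medians of -0.19 and -0.10. Of 7 names for electron carriers and ubiquinone synthesis 5 had their own locus, and 4 of these were lower in monosome RNA of each mutant. The exception was *cyc-2.2*, a cytochrome c gene, with 174 FPKM in *wrm10*, 178 FPKM in *wrm15* and 96.6 FPKM in WT monosome RNA. It was also higher in total RNA, at 137 FPKM in *wrm10*, 138 FPKM in *wrm15* and 72.3 FPKM in WT. Its polysome RNA was higher by less, at 152 FPKM in *wrm10*, 148 FPKM in *wrm15* and 116 FPKM in WT. The log2 change in its translational efficiency was thus -0.53 in *wrm10* and -0.59 in *wrm15*.

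Subunits encoded in the mitochondrial genome, which are made on mitochondrial ribosomes, differed in the polysome fraction. Of 12 names 6 had their own locus. All 6 were past 1.2-fold lower in polysome than in total RNA of WT (34.8% of all loci), with a median log2 ratio of -1.78. Of these, *nduo-2* had 0.79 FPKM in WT polysome RNA, below the filter of 1 FPKM. The monosome to total ratio of the 6 genes had a median of 0.34, next to 0.33 for the 28 nuclear genes. Of the 6 genes 4 were past 1.2-fold higher in that ratio (29.3% of all loci). In total RNA all 6 were lower in each mutant, with medians of -0.35 in *wrm10* and -0.29 in *wrm15*, next to -0.08 and -0.01 for the 28 nuclear genes.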

How the data were processed

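RNA of 9 groups was depleted of ribosomal RNA and sequenced by the authors, who mapped reads to WBcel235 (Ensembl 91) with HISAT2 2.1.0, assembled transcripts with StringTie 1.3.4d and ran Cuffquant and Cuffdiff (Cufflinks 2.2.1), per the study's methods and the submitters' processing notes. The values the authors deposited are FPKM, 1 per locus and group, each combining 4 libraries and normalized by Cuffdiff with options not given in the sources used here. They stand in 1507500 rows for the 36 pairs of groups and did not differ between rows. The deposited table also holds the authors' log2 fold changes, test statistics, p-values, q-values and calls, which were not used. Depth per library is unknown.

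Log2 ratios of FPKM were computed with no pseudocount (Python 3.11.15, pandas 2.3.3) over loci with at least 1 FPKM in all 9 groups. The related lists and markers were not filtered by level. The computation was tested on simulated data. Differences past 1.2-fold were counted without a test. The change in translational efficiency was the log2 polysome to total ratio of a mutant less that of WT. Coordinates and coding lengths came from Ensembl 115 (WBcel235), matched by symbol for all 28 genes. The named genes were *lpd-5*, *isp-1*, *cyc-1*, *mev-1*, the highest and lowest of each complex in WT total RNA, the extremes of the WT polysome to total ratio, the 3 highest and 3 lowest mean changes in translational efficiency, the pairs of copies, and any past 1.5-fold in total or polysome RNA of a mutant (none). The values of 1 complex I member are not reported here on their own, but it is kept in all counts and medians. Others were named as leading values after these were seen. The members and lists were chosen with earlier results of these data known.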

Additional observations from a re-analysis of the deposited data

How the results depend on the processing

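The values are pooled, which limits what could be varied: leaving out single libraries was not possible. No paired analysis was possible because the table holds 1 value per group and no value per library. Over 14 comparisons, 194 values kept their sign, with a median within 0.1 (log2) of its first value or a count within 1.5 times of it, under the alternatives. Medians near 0 could change by a large part of their size within that limit. The alternatives were pseudocounts of 0.1 and 1 FPKM, no filter, a filter of 10 FPKM or 100 FPKM, a 1.5-fold threshold, centring, joined loci left out and assembly factors left out.

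At 1.5-fold the genes past the threshold in WT numbered 12 for polysome against total RNA, 5 for monosome against total RNA and 8 for polysome against monosome RNA. In either direction 52.1%, 32.2% and 45.0% of all loci were past it in those comparisons, larger shares than among the 28 genes. For polysome and monosome RNA of *ppp-1(wrm10)*, monosome RNA of *ppp-1(wrm15)*, and monosome RNA between the mutants, 0 genes passed it. Centred on the median of all loci, the WT polysome to total median was 0.40. With that centring 0 genes passed 1.2-fold for polysome RNA of *ppp-1(wrm10)*, 9 for monosome RNA of *ppp-1(wrm10)* and 6 for monosome RNA of *ppp-1(wrm15)*. Of all loci 24.1%, 29.9% and 36.0% passed in either direction. The total RNA median of *ppp-1(wrm15)* turned to 0.028 under the centring. With the 17 genes of at least 100 FPKM, a filter added after seeing the data, 14 passed for WT polysome against total RNA and 9 for WT polysome against monosome RNA. Of all loci at that level 82.0% and 74.4% passed in either direction. The WT monosome to total median was 0.45 there, and 2, 11 and 0 genes passed for polysome RNA of *ppp-1(wrm10)*, monosome RNA of *ppp-1(wrm10)* and monosome RNA between the mutants, fewer genes being counted. With monosome RNA as the denominator the efficiency medians turned to 0.11 in the *wrm10* mutant and 0.13 in the *wrm15* mutant, since monosome RNA was lower by more than polysome RNA.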
